A study of Homo sapiens with 20 samples.

Results

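The TGF-beta and epithelial to mesenchymal transition (EMT) genes described here are 9 genes read in HCT116, an established line of human colorectal carcinoma cells: TGFBR2, SMAD3, SMAD7, SKIL, SNAI2, ZEB1, VIM, CDH1 and CDH2. They were chosen by name, with earlier results of these data known, and are 9 of the 19974 protein-coding RefSeq genes on chromosomes 1 to 22 and X. Cells were MLL4 knockout (KO) or wild type (WT), and the labels name no treatment in either genotype. The sources used here do not give whether the knockout is 1 clone. Chromatin immunoprecipitation with sequencing gave 18 peak lists on hg38. The histone marks H3K4me3 and H3K27ac and the transcription factor p53 had 2 libraries per genotype. The mark H3K4me1 and the histone methyltransferases MLL4 (KMT2D) and MLL1 (KMT2A) had 1 per genotype, so their values have no replicate check. No label ties replicates to separate cultures, so a p-value reflects the spread of these libraries alone, and that spread may be technical.

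TGF-beta ligands bind the receptor kinase TGFBR2, which recruits and activates a type I receptor that phosphorylates SMAD3. SMAD3 enters the nucleus with SMAD4, and among its targets are SMAD7 and SKIL, which dampen the pathway in turn. EMT is driven by repressors such as SNAI2 and ZEB1, which bind E-boxes and silence the epithelial cadherin CDH1, while the mesenchymal genes VIM and CDH2 are expressed. HCT116 cells are known to carry inactivating TGFBR2 mutations and to remain epithelial. MLL4 places H3K4me1 at enhancers and MLL1 acts mainly at promoters. H3K27ac marks active enhancers and promoters, and H3K4me3 marks promoters.

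Each gene was described with 100 kb on each side. Peaks of a target from all its libraries that overlapped were merged into regions. A region was taken as lost when both WT libraries and no KO library had a peak in it (1 library each for H3K4me1, MLL4 and MLL1), as gained when the pattern was the opposite, and as retained when every library had one. Other patterns were counted as mixed. Fold is the authors' own fold enrichment of a peak over local background, and the highest peak of a library in a region is given. Lost means below the calling limit, not zero. The lists differed in length: H3K27ac lists held 65050 and 61959 peaks in KO, against 139104 and 198757 in WT, and the H3K4me1 lists held 43636 peaks in KO and 125507 in WT. The p53 lists held 24972 and 62248 peaks in KO, against 36525 and 32631 in WT. Read depth is unknown. Of 8 colon epithelial markers, 5 (EPCAM, KRT8, KRT18, CDX2 and LGR5) had H3K4me3 at their start in all 4 libraries and KRT20, CDX1 and VIL1 had none. Among other cell types this held for 1 of 4 blood, 1 of 5 fibroblast and 0 of 3 endothelial markers. Over all 19974 coding genes, 11734 had H3K4me3 at the start in all 4 libraries.

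The starts on which the results turn are shown first. The 250 bases before a start were taken from RefSeq promoters on GRCh38.p14, for 7 of the 9 genes and 21 starts. SMAD3 has a first start whose H3K4me3 was retained and internal starts where marks were lost. At their first starts SMAD7 keeps H3K4me3 and CDH2 has none. Capitals mark CG dinucleotides, which were searched as CG, a palindrome that reads the same on both strands; 93.9% of the 35114 promoter stretches of this length hold at least 1, and their median is 11. The regions are chr15:67065352-67065601 (plus strand), chr15:67098429-67098678 (plus), chr15:67125492-67125741 (plus), chr18:48950966-48951215 (minus) and chr18:28177131-28177380 (minus).
SMAD3 first start: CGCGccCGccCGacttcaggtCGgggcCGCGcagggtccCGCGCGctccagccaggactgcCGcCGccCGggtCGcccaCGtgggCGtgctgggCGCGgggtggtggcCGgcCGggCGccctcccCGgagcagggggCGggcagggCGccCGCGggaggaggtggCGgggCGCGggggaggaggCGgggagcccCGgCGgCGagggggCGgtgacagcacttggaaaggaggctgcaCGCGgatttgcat
SMAD3 internal start at 67098679: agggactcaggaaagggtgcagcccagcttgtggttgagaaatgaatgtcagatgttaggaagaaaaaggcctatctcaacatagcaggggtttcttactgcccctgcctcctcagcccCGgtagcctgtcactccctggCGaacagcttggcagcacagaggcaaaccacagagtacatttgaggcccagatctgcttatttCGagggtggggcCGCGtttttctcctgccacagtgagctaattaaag
SMAD3 internal start at 67125742: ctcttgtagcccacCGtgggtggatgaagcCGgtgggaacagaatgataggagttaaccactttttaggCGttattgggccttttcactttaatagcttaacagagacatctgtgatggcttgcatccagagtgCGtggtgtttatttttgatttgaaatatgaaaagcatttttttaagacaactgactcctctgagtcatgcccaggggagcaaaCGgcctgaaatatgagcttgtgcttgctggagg
SMAD7 first start: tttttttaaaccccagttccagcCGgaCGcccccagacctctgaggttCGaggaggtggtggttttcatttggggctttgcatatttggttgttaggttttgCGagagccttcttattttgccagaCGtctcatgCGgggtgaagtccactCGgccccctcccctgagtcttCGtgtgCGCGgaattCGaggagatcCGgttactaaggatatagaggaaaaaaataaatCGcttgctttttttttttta
CDH2 first start: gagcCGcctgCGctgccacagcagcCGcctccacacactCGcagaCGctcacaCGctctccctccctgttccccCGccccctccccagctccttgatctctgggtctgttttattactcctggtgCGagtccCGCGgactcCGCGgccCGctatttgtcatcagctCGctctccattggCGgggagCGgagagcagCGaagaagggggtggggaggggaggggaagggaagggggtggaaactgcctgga

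The stretch before the first SMAD3 start held 36 CG dinucleotides and was 80.8% G or C. The stretches before both internal SMAD3 starts held 5 each, and were 52.8% and 44.8% G or C. SMAD7 held 13 and CDH2 held 17, both above the median. On both strands, none of these 5 stretches held the E-box CAGGTG or the SMAD palindrome GTCTAGAC, and the SMAD box CAGAC occurred at SMAD7 and CDH2, 2 matches each. Over all 21 starts of the members, 4 held the E-box, against 17.5% of all stretches, and 0 the SMAD palindrome, against 0.182%. The SMAD box was held by 10, against 38.0%, and the p53 half-site by 2, against 5.57%. Matches of different motifs can share bases: at the SMAD3 start at 67166531 a p53 half-site and a SMAD box overlap.

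MLL4 had no peak in KO in any of the 9 windows, against 51 peaks in WT. Genome-wide 99.8% of WT MLL4 regions were lost. The 51 peaks were unevenly spread: SMAD3 had 10, SMAD7 9, CDH1 8, SKIL and VIM 6 each, ZEB1 and CDH2 5 each, and TGFBR2 and SNAI2 1 each. The first start of SMAD3, SKIL, ZEB1, VIM and CDH2 lay within 1 kb of an MLL4 peak, as did CDH1. TGFBR2, SMAD7 and SNAI2 had none there. The matching shares over all coding genes were not counted, so these counts cannot be read as a trait of the members. The windows also differed in length, from 204 kb at SNAI2 to 444 kb at CDH2. VIM, which encodes the intermediate filament vimentin, held the 3 MLL4 peaks of highest fold, 13.7, 12.9 and 11.8, all inside the gene. The next highest was 6.67, just before the first SMAD3 start (chr15:67065248-67065551).

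At the members' own starts, H3K4me3 was kept in KO, while H3K27ac folds were mostly lower and MLL1 folds higher. H3K4me3 was present in all 4 libraries at 8 of 9 starts, all but CDH2, against 11734 of 19974 coding genes. Of starts marked in both WT libraries, 8 of 8 kept it, against 99.2% genome-wide. Both KO folds were below both WT folds at 0 of the 8, against 21.9% of starts genome-wide, and above them at 2 of 8 (SMAD3 and VIM), against 10.8%. H3K27ac was in all 4 libraries at 7 of 9 starts, against 83.8% genome-wide, and lost at SNAI2 and CDH2. Both KO folds were below both WT folds at 6 of the 7, all but VIM, against 88.2% of all starts.

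TGFBR2, the type II receptor, had H3K4me3 folds of 118 and 216 in KO, against 155 and 203 in WT (chr3:30605506-30608416). Its H3K27ac folds at the start were 26.2 and 16.5 in KO, against 45.7 and 62.4 in WT. The H3K4me3 ranges overlapped, whereas both KO H3K27ac folds were lower. The start of LOC105377015 lies in the same regions, so the peaks cannot be assigned to either gene alone. The receptor-regulated SMAD3 had H3K4me3 folds of 185 and 202 in KO, against 153 and 171 in WT (chr15:67063781-67068787), and H3K27ac folds of 19.2 and 22 in KO, against 56.2 and 27.1 in WT. Both KO values thus lay above WT for H3K4me3 and below WT for H3K27ac at the same start.

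The inhibitory SMAD7 had H3K4me3 folds of 41.7 and 97.6 in KO, against 69.3 and 75.5 in WT (chr18:48948134-48953216). Its strongest H3K27ac at the start, on the upstream side of it, had folds of 6.64 and 9.57 in KO, against 11.7 and 13.4 in WT. SKIL, which encodes the SMAD corepressor SnoN, had H3K27ac folds of 24.3 and 23.6 in KO, against 34.5 and 32.9 in WT. Its H3K4me3 was 128 and 162 in KO, against 125 and 137 in WT.

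Among the EMT repressors, ZEB1 had H3K4me3 folds of 132 and 151 in KO, against 125 and 149 in WT, and H3K27ac folds of 26.5 and 30.1 in KO, against 53.6 and 33.8 in WT. SNAI2 was marked more weakly. The tables used give no strand for SNAI2 and CDH1, so either gene end was taken as a start; SNAI2's marks lay at its high-coordinate end and those of CDH1 at its low-coordinate end. SNAI2 had H3K4me3 folds of 25.1 and 47.7 in KO, against 31.5 and 30.7 in WT (chr8:48920444-48922320). Its H3K27ac had no peak in either KO library, against folds of 7.19 and 4.43 in WT. H3K4me3 at SNAI2 thus had overlapping ranges where H3K27ac was no longer called.

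The epithelial cadherin CDH1 had H3K27ac folds of 9.06 and 5.92 in KO, against 13.8 and 33.6 in WT (chr16:68736678-68738705). Its H3K4me3 was 103 and 165 in KO, against 94.0 and 196 in WT. VIM had H3K4me3 folds of 59.5 and 51.4 in KO, against 39.6 and 35.5 in WT, and H3K27ac folds of 18.3 and 15.5 in KO, against 31.9 and 10.0 in WT. At VIM the wide spread between WT libraries enclosed the KO values.

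The neural cadherin CDH2 stood apart as the member with no H3K4me3, H3K4me1 or MLL1 peak at its start in either genotype. In WT it had weak H3K27ac in 2 regions, with folds of 4.21 and 2.75 over the start (chr18:28177052-28177657) and 3.91 and 4.43 within the gene (chr18:28175393-28176204). Neither region had a peak in KO. An MLL4 peak of fold 4.17 lay over the start in WT (chr18:28177082-28177431). p53 had a peak there of fold 6.98 in KO replicate 2 and none in KO replicate 1, against 9.06 and 20.4 in WT. The CDH2 window did hold 1 retained H3K4me3 region, about 254 kb past the start and beyond the gene's far end. Its folds were 32.1 and 23.7 in KO, against 27.8 and 6.73 in WT. MLL1 had 6.22 in KO and 9.67 in WT at that place, and H3K4me1 had a peak in both genotypes.

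MLL1 had a peak at the other 8 starts in both genotypes, against 11078 of 19974 coding genes. The KO fold was the higher at 8 of 8, against 97.8% of all such starts. The KO and WT folds were 92.4 and 34.4 at TGFBR2, 80.1 and 21.1 at SMAD3, 29.1 and 20.4 at SMAD7 and 36.3 and 13.4 at SKIL. They were 24.0 and 9.13 at SNAI2, 57.5 and 11.8 at ZEB1, 19.4 and 7.83 at VIM, and 29.8 and 9.13 at CDH1. The ratio of KO to WT was highest at ZEB1 and lowest at SMAD7. H3K4me1 regions that reached within 1 kb of a start went the other way: the KO fold was lower at 7 of 7 starts with a peak in both genotypes, against 82.1% genome-wide. At CDH1 it was 4.24 in KO and 11.0 in WT, in a region of 2546 bp. At SMAD3 and SMAD7 these regions spanned 48128 and 21814 bp, so their highest fold need not lie near the start. At ZEB1 a region at the start held a KO peak alone, of fold 3.88.

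**Figure D1:**
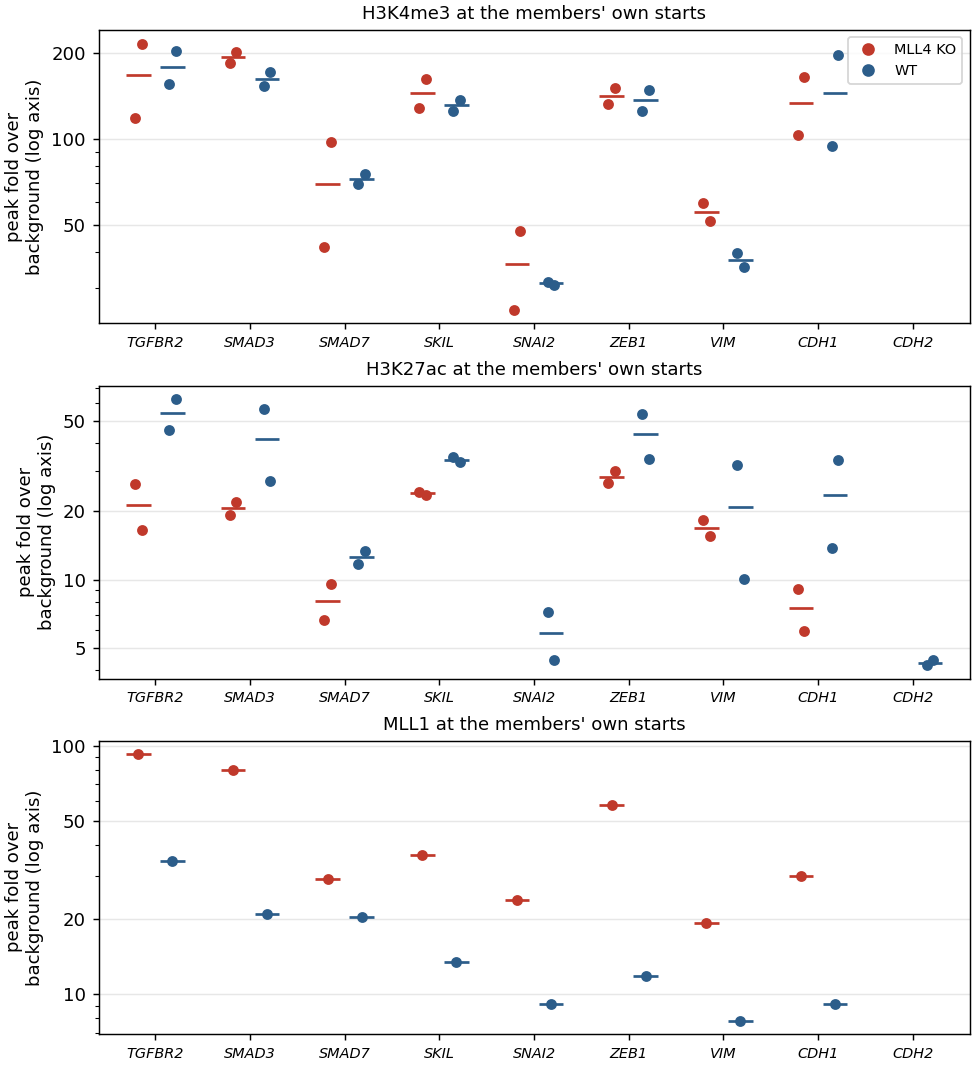
Highest peak fold over local background (log axis) within 1 kb of each member's own start, for H3K4me3, H3K27ac and MLL1. Points are libraries, KO in red and WT in blue, and lines are means; a gene with no point had no peak. KO and WT points overlap for H3K4me3 at 6 of 8 starts, and KO points lie below WT for H3K27ac at 6 of 7 starts and above WT for MLL1 at 8 of 8.

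Other genes of both pathways were read at their starts. Of 24 further TGF-beta genes, 21 had H3K4me3 at the start in all 4 libraries and 19 had H3K27ac in all 4. Over all 19974 coding genes, 11734 had H3K4me3 and 12653 had H3K27ac at the start in all 4 libraries. H3K27ac folds were lower in both KO libraries at 15 of the 19 TGF-beta genes, no more often than the 88.2% of all coding gene starts. SMAD2, a receptor-regulated SMAD, had H3K27ac folds of 24.1 and 15.6 in KO, against 64.8 and 58.3 in WT. The shared partner SMAD4 had 18.0 and 11.0 in KO, against 33.8 and 50.5 in WT, and the type I receptor TGFBR1 had 6.59 and 7.70 in KO, against 19.7 and 15.7 in WT. Of 20 further EMT genes, 15 had H3K4me3 and 13 had H3K27ac in all 4 libraries, with lower KO folds at 12 of the 13, beside the same 88.2%. The EMT repressor SNAI1 had H3K27ac folds of 16.8 and 20.5 in KO, against 41.3 and 40.5 in WT. TWIST1, another EMT factor, lost weak H3K27ac, with no peak in KO against folds of 5.70 and 5.74 in WT.

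Away from starts, 151 H3K27ac regions in the 9 windows were present in both WT libraries, and 91 of them (60.3%) were lost, against 62.3% of such regions genome-wide. The members' share was thus near the background. The count of 91 was 213 without WT replicate 1, and 22 when every list was cut to the length of the shortest. No region was gained, of 34 present in both KO libraries, against 5.22% genome-wide; without KO replicate 1 there were 5. Of the 33 retained regions, 27 had both KO folds below both WT folds, against 73.0% of retained regions genome-wide, and 1 had both above, against 2.71%. Of 301 distal regions in all, 177 were mixed, and 119 of these had a peak in WT replicate 2 alone.

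Lost regions were weaker in WT than retained ones, and narrower as merged regions. The median of the mean WT fold was 4.92 over the 91 lost regions and 11.1 over the 33 retained ones, and the median widths were 788 and 1684 bp. This is a description, since weak regions lie nearer to the calling limit. The widths are of merged regions, which join peaks of every library when retained and of WT alone when lost. H3K4me1 peaks of WT overlapped 67 of the lost and 33 of the retained regions, whereas H3K4me1 peaks of KO overlapped 2 of the lost and 15 of the retained. H3K4me3 of both WT libraries lay in 0 of the lost and 8 of the retained regions. The matching H3K4me1 and H3K4me3 overlaps genome-wide were not counted, and lost and retained regions differed in width. These overlaps thus cannot be read as a trait of the members. An MLL4 peak lay in 15 of the 151 regions, of which 8 were lost (53.3%), against 44.5% of MLL4-bound regions genome-wide.

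SMAD3, SMAD7 and CDH1 held most of these regions. SMAD3 had 28 lost of 53 regions present in both WT libraries, SMAD7 32 of 52 and CDH1 15 of 21. SKIL had 4 of 4, ZEB1 6 of 7 and SNAI2 5 of 8, and none of these 3 had a retained one. TGFBR2 had 1 lost of 5, VIM 0 of 1 and CDH2 no region in both WT libraries. The windows also hold other coding genes, such as CTIF and DYM beside SMAD7 and CDH3 and TANGO6 beside CDH1, so a region need not act on the member.

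**Figure D2:**
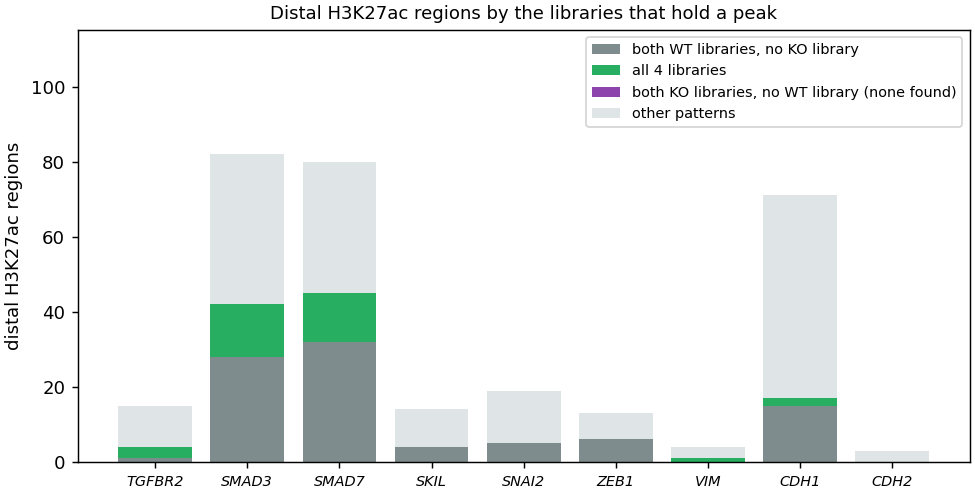
Number of distal H3K27ac regions in each member's window, divided by the libraries that hold a peak. Lost regions (grey) number 28 at SMAD3, 32 at SMAD7 and 15 at CDH1, and regions in all 4 libraries (green) are found at TGFBR2, SMAD3, SMAD7, VIM and CDH1.

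The length covered by H3K27ac peaks in a window lay below both WT libraries in both KO libraries for 6 of 9 members, against 90.8% of all coding gene windows. With 2 libraries against 2, the two-sided exact permutation test cannot go below p = 0.333, and over the 27 window tests made for H3K27ac, H3K4me3 and p53 the lowest adjusted p was 0.750 (Benjamini-Hochberg). SMAD3 had 30.2 and 29.2 kb in KO, against 81.5 and 88.1 kb in WT (exact permutation p = 0.333). SMAD7 had 21.1 and 12.4 kb in KO, against 73.0 and 99.5 kb in WT. CDH1 had 8.86 and 6.50 kb in KO, against 23.3 and 57.0 kb in WT. At each of the 6 separated members, SKIL, SNAI2 and ZEB1 included, the lower of the WT values was above 2 times the higher KO value.

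SNAI2 had 1.41 and 0.793 kb in KO, against 7.54 and 11.4 kb in WT. The mean log2 ratio of KO over WT at SNAI2, −3.13, was the lowest of the 9, but with lists of equal length it was −1.36, above the −1.82 of SMAD7 and the −1.60 of CDH1. SKIL had 1.91 and 1.39 kb in KO, against 5.94 and 8.77 kb in WT. ZEB1 had 5.66 and 4.29 kb in KO, against 15.7 and 15.4 kb in WT. The remaining 3 members had overlapping ranges. TGFBR2 had 5.97 and 6.01 kb in KO, against 5.19 and 6.08 kb in WT (exact permutation p = 1). VIM had 5.37 and 4.82 kb in KO, against 6.90 and 4.76 kb in WT, and CDH2 1.55 and 0.884 kb in KO, against 3.24 and 1.19 kb in WT. The same log2 ratio at VIM, −0.17, changed sign without WT replicate 1 and with lists of equal length.

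H3K4me1 peaks covered less of every window in KO, including the 3 where H3K27ac cover overlapped. Of 153 distal H3K4me1 regions in WT, 132 (86.3%) were lost, against 86.6% genome-wide, and 4 of 25 KO regions (16%) were gained, against 34.3%. TGFBR2 had 4.69 kb of H3K4me1 in KO and 39.8 kb in WT, SMAD3 16.7 and 160 kb, and SMAD7 11.7 and 117 kb. KO was under 0.2 of WT at 6 of 9 members, against 30.5% of all windows; the members were these 3, SNAI2, CDH1 and CDH2. VIM kept most, with 11.0 kb in KO and 16.4 kb in WT. The H3K4me1 KO list is also the shorter one genome-wide. With lists of equal length the 132 lost regions were 38, and at a −log10 q-value of at least 5 they were 59; covered lengths were read from the lists as deposited.

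**Figure D3:**
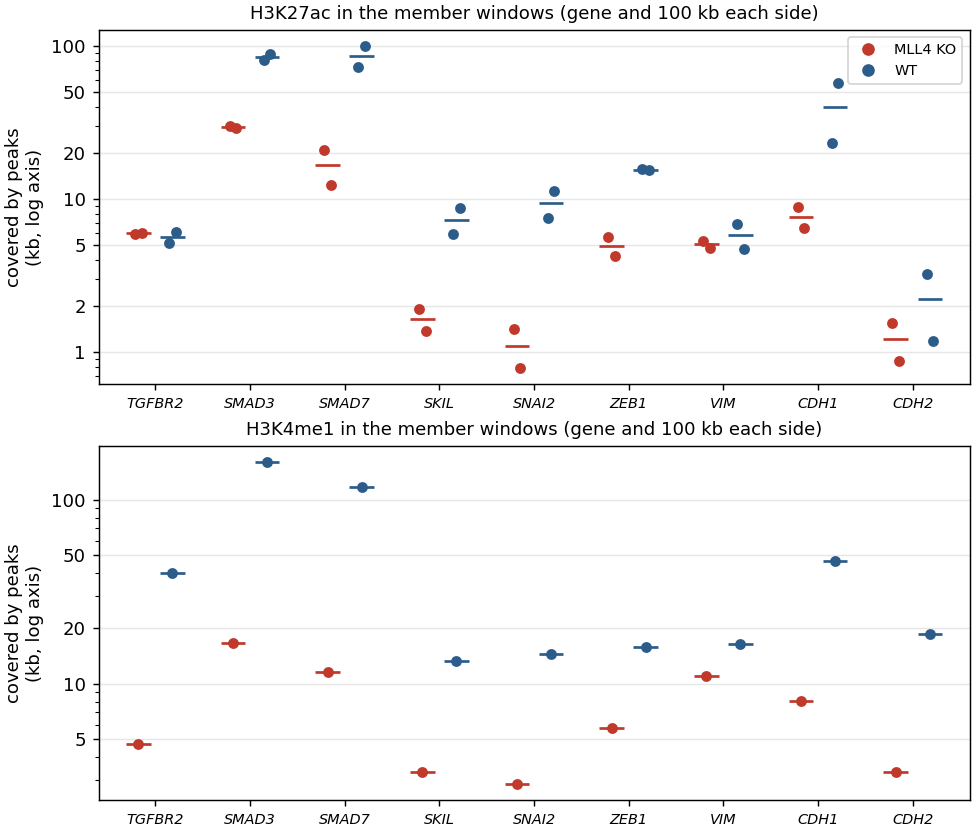
Length covered by H3K27ac and H3K4me1 peaks (kb, log axis) in each member's window, with KO libraries in red, WT libraries in blue and means as lines. TGFBR2 has about the same H3K27ac in KO (5.97 and 6.01 kb) and WT (5.19 and 6.08 kb), but 4.69 kb of H3K4me1 in KO and 39.8 kb in WT.

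Exon and intron positions were not used here, and regions are placed only inside or outside a gene. Within TGFBR2 a region 24.3 kb past the start (chr3:30630623-30632410) was the 1 retained distal region of the 33 with both KO folds above both WT folds. Its H3K27ac folds were 9.24 and 7.47 in KO, against 5.38 and 6.30 in WT. The neighbouring retained region of highest WT fold (chr3:30659510-30660050) went the other way, with 8.01 and 7.37 in KO, against 16.9 and 22.8 in WT. The 1 lost region lay beside it (chr3:30658751-30659153), with no peak in KO and folds of 6.18 and 5.18 in WT. A single MLL4 peak of WT lay in this window, of fold 3.31, upstream of the gene (chr3:30596028-30596321).

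Inside SMAD3 the strongest distal H3K27ac region of all members lay 37.5 kb past the first start (chr15:67103096-67108799). Its folds were 13.3 and 14.4 in KO, against 63.6 and 53.4 in WT, and it held an MLL4 peak of fold 5.00 in WT (chr15:67107028-67107192). It also held H3K4me3 in WT, at chr15:67104946-67106022 with folds of 5.63 and 4.90 and at chr15:67107263-67107806 with 7.01 and 8.19, and none in KO. Distal H3K4me3 present in both WT libraries was lost at 4 of 12 regions (33.3%), against 14.1% genome-wide, and all 4 were in the SMAD3 window. MLL1 had 4 regions in the same stretch. The strongest (chr15:67104857-67106461) had no peak in KO and a fold of 10.7 in WT, another 2 had no peak in KO and folds of 4.30 and 5.02 in WT, and the 1 retained (chr15:67106838-67108277) had 4.06 in KO and 5.91 in WT. The lost distal H3K27ac region of highest WT fold was upstream of the gene (chr15:67039282-67040336), with no peak in KO and folds of 6.79 and 22.2 in WT.

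The internal SMAD3 start at 67125742, whose bases are printed above, lost H3K4me3 (chr15:67125020-67126369). Neither KO library had a peak, against folds of 10.0 and 13.2 in WT. This was the 1 alternative start of a member with H3K4me3 in both WT libraries, and of 1000 regions at alternative starts of coding genes 2.80% were lost. H3K27ac there was retained but weaker, with 7.43 and 9.34 in KO, against 28.1 and 42.9 in WT (chr15:67123877-67128285). MLL1 had a fold of 5.18 in KO and 13.6 in WT, the reverse of its order at the first start. At the internal start at 67098679, H3K27ac was lost (chr15:67098179-67099136), with no peak in KO and folds of 9.24 and 20.8 in WT. An MLL4 peak of WT, of fold 3.17, lay inside this lost region. Total H3K4me3 in the SMAD3 window covered 7.68 and 6.89 kb in KO, against 11.6 and 11.6 kb in WT (exact permutation p = 0.333).

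**Figure D4:**
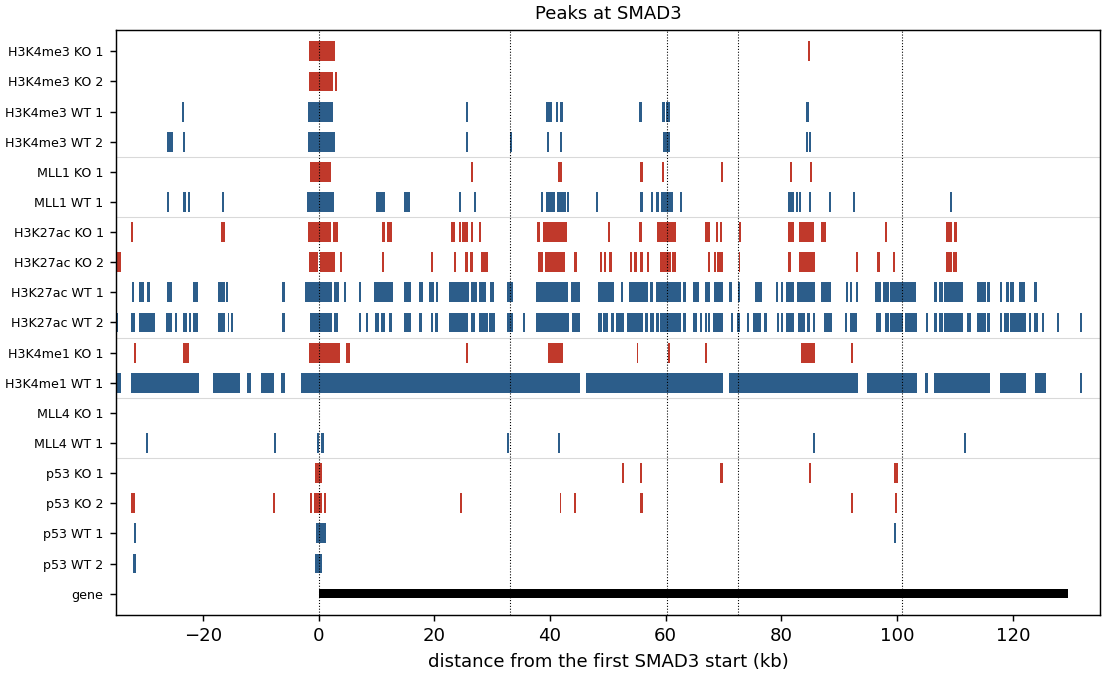
Peaks of each library along SMAD3, with distance from its first start in kb; KO libraries are red, WT libraries blue, dotted lines RefSeq starts and the black bar the gene. H3K4me3 and MLL1 peaks of WT inside the gene, near 40 and 60 kb, are fewer or missing in KO, and the peak at the first start is present in every H3K4me3 and MLL1 library.

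SMAD7 had 5 distal H3K4me3 regions present in both WT libraries, of which 4 were retained and 1 lacked a peak in KO replicate 1. Of the 6 distal H3K4me3 regions retained in the 9 windows, 4 lay at SMAD7, the strongest 24.2 kb upstream of its start (chr18:48975166-48977316). Its folds were 39.7 and 77.3 in KO, against 46.4 and 43.1 in WT. MLL1 had a fold of 15.5 in KO and 7.52 in WT there (chr18:48975348-48976683), the 1 retained distal MLL1 region of the members with the higher KO fold. The strongest retained H3K27ac region, 69.1 kb upstream (chr18:49020059-49027821), had 9.36 and 10.7 in KO, against 25.4 and 20.7 in WT. The strongest lost one lay beyond the other end of the gene (chr18:48857875-48861814), with no peak in KO and 7.49 and 10.6 in WT, next to the CTIF start, where H3K27ac was lost as well.

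H3K4me3 cover differed in direction between members. In both KO libraries it lay below both WT libraries at SMAD3 and SMAD7 (2 of 9, against 4.32% of windows). It lay above them at SKIL, SNAI2 and ZEB1 (3 of 9, against 45.1%). SNAI2 had 2.50 and 2.05 kb in KO, against 2.01 and 1.38 kb in WT. Without WT replicate 1 the count of windows with less H3K4me3 in KO was 4.

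For SKIL the lost H3K27ac region of highest WT fold was upstream (chr3:170327268-170327915), with no peak in KO and 4.50 and 7.61 in WT. For ZEB1 it lay beyond the gene's 3′ end (chr10:31582481-31583635), with no peak in KO and 8.39 and 10.0 in WT, and for SNAI2 at chr8:48872219-48873045 with 5.10 and 3.87 in WT. CDH1 had a stronger one (chr16:68664673-68666708), with no peak in KO and 7.79 and 25.9 in WT. The retained region of highest WT fold at CDH1 (chr16:68706122-68708594) had 5.61 and 5.90 in KO, against 12.3 and 19.0 in WT. VIM had 1 retained distal region (chr10:17216531-17217498), with 4.95 and 5.38 in KO, against 25.5 and 10.8 in WT.

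Distal MLL1 regions of WT mostly had no peak in KO, with 1 library per genotype. Over all classes 45 of 67 WT MLL1 regions (67.2%) were lost, against 55.4% genome-wide, and 6 of 28 KO regions (21.4%) were gained, against 48.3%. Among distal regions 44 of 52 (84.6%) were lost, against 80.2%. The KO fold was the lower at 7 of the 8 distal regions called in both genotypes, against 18.3% of such regions genome-wide, and 4 of these 8 lay inside SMAD3. The lost region of highest fold was also in SMAD3 (chr15:67075555-67077013), with 11.8 in WT.

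VIM showed another pattern within its gene body. MLL4 of WT covered chr10:17229306-17230713, chr10:17233592-17234818 and chr10:17235012-17237555, and had no peak in KO. p53 had 2 regions in the last of these with no peak in KO: chr10:17235169-17235390, with folds of 4.28 and 4.09 in WT, and chr10:17235701-17237433, with 5.38 and 6.61 in WT. MLL1 was gained over the same bases, with KO folds of 4.49 at chr10:17235169-17236036 and 3.79 at chr10:17236293-17236826 and no peak in WT. H3K4me1 was gained there too, with a KO fold of 3.71 (chr10:17234080-17237342) and no peak in WT. Several of these peaks shared an edge to the base. Peaks of p53 in both WT libraries and of MLL1 in KO began 6.928 kb past the start. Others of p53 in WT replicate 2 and of MLL1 in KO began at 8.052 kb. An MLL4 peak of WT and a p53 peak of WT replicate 2 both ended at 6.577 kb. The cause of these shared edges was not tested. These p53, MLL1 and H3K4me1 folds are low, whereas the MLL4 folds of 13.7, 12.9 and 11.8 were the highest of the members. The gene's start kept every histone mark.

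**Figure D5:**
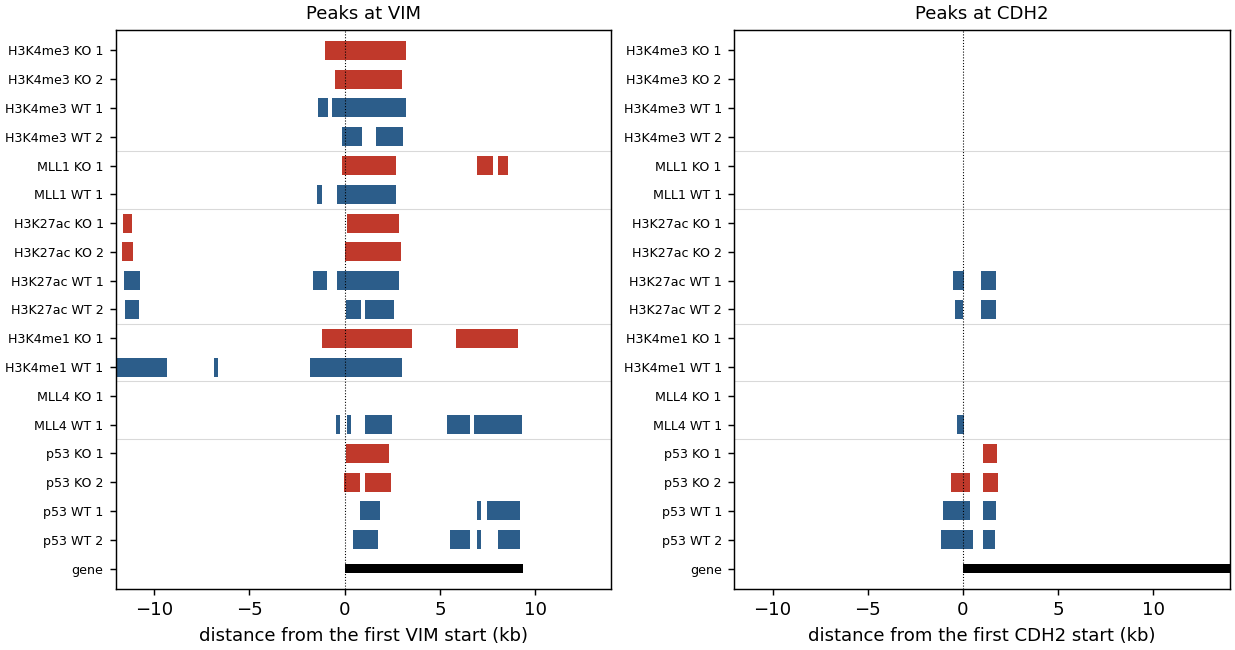
Peaks of each library around VIM and CDH2, by distance from the first start in kb, with KO libraries in red, WT libraries in blue and the gene as a black bar. At 5 to 9 kb VIM has MLL4 and p53 peaks in WT and MLL1 and H3K4me1 peaks in KO; CDH2 has no H3K4me3, MLL1 or H3K4me1 peak in the stretch shown.

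p53 peaks lay at the members' starts in both genotypes. In both WT libraries p53 lay at 8 starts, all but SNAI2, against 9518 of 19974 coding genes. Of the 8, 7 had it in all 4 libraries, against 85.2% genome-wide, and CDH2 lacked it in KO replicate 1. Both KO folds were below both WT folds at 3 of the 7, SMAD3, SMAD7 and ZEB1, against 44.7%. The SMAD3 start had 6.56 and 12.8 in KO, against 18.9 and 38.0 in WT. SMAD7 had 2 p53 regions at its start, both in all 4 libraries. The highest folds over both were 6.12 and 8.72 in KO, against 9.82 and 20.4 in WT. In the 1 just inside the gene (chr18:48949897-48950887) they were 4.48 and 8.72 in KO, against 9.82 and 20.4 in WT. The ZEB1 start had 6.15 and 9.37 in KO, against 9.82 and 25.4 in WT. At TGFBR2 the values were 7.86 and 14.6 in KO, against 11.3 and 18.3 in WT, and at SKIL 8.72 and 14 in KO, against 13.1 and 22.1 in WT, so ranges overlapped at both. Ranges also overlapped at VIM, with 7.12 and 9.52 in KO, against 8.01 and 21.6 in WT, and at CDH1, with 7.15 and 10.2 in KO, against 7.94 and 10.6 in WT.

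Over all classes 3 of 22 p53 regions present in both WT libraries were lost, against 12.7%, and 5 of 21 present in both KO libraries were gained, against 17.6%. The lost ones were both VIM regions above and 1 at the start of CLDN11, a claudin gene in the SKIL window (chr3:170418632-170419117), with no peak in KO and 9.06 and 21.8 in WT. H3K27ac at CLDN11 was lost too. The gained ones were at SMAD3 (chr15:67121103-67121603, 4.58 and 5.71 in KO), at SMAD7 (chr18:48952237-48953086, 8.83 and 8.89, and chr18:49020731-49021621, 5.11 and 5.71), at TRDMT1 in the VIM window (chr10:17201420-17201782, 7.60 and 6.48) and at TANGO6 in the CDH1 window (chr16:68843401-68843978, 5.30 and 4.86). None of these had a peak in WT. Without KO replicate 1 the gained regions numbered 44, and without KO replicate 2 they numbered 10.

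Across the windows, 5 distal p53 regions were kept in all 4 libraries. One lay at SNAI2 (chr8:48977092-48978375), with folds of 5.62 and 6.98 in KO, against 11.3 and 31.7 in WT, over an MLL4 peak of WT. One lay inside CDH2 (chr18:28175293-28176102), with 4.12 and 6.35 in KO, against 12.4 and 14.9 in WT. The SKIL one (chr3:170327354-170327918) had 4.60 and 4.44 in KO, against 9.06 and 6.34 in WT, over the H3K27ac region that was lost. SMAD7 held the other 2, with 5.49 and 10.8 in KO, against 7.55 and 22.5 in WT, at chr18:48975310-48976751, and 5.11 and 5.08 in KO, against 5.29 and 5.64 in WT, at chr18:49018830-49019149. Both KO folds were lower at 4 of these 5. The matching share over all distal p53 regions was not counted, so this cannot be read as a trait of the members.

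Besides the CDH2 start, 8 p53 regions were called in both libraries of 1 genotype and in 1 of the other. At SNAI2 (chr8:48870102-48870729) the folds were 7.86 and no peak in KO, against 12.1 and 33.8 in WT, and upstream of SMAD3 (chr15:67033201-67034032) no peak and 9.75 in KO, against 6.59 and 29.4 in WT. Inside ZEB1 (chr10:31361740-31362660) they were no peak and 3.26 in KO, against 6.80 and 7.05 in WT. Upstream of CDH1 (chr16:68642630-68643045) they were no peak and 8.89 in KO, against 9.06 and 16.2 in WT. A second region at CLDN11 (chr3:170419574-170420191) had no peak and 7.62 in KO, against 6.80 and 19.7 in WT. In these 5 the missing peak was in a KO library. The opposite held at CDH3 (chr16:68644933-68646208), with 8.17 and 8.25 in KO, against no peak and 8.46 in WT, at LOC124906892 in the ZEB1 window (chr10:31603212-31603822), with 6.83 and 7.61 in KO, against no peak and 5.55 in WT, and at the last SMAD3 start (chr15:67165109-67165686), with 6.13 and 5.08 in KO, against 4.38 and no peak in WT.

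The number of p53 peaks in a window was above both WT libraries in both KO libraries at SMAD3, with 6 and 13 peaks in KO, against 4 and 2 in WT (exact permutation p = 0.333, the smallest possible). That is 1 of 9 members, against 16.5% of all windows. The count was 3 with lists of equal length, 0 at a −log10 q-value of at least 5, 6 without KO replicate 1, 2 without WT replicate 1, 3 without WT replicate 2 and 3 with the replicate block. SMAD7 had 6 and 24 peaks in KO, against 7 and 7 in WT. The length covered by p53 peaks gave more separated windows. Both KO libraries were above both WT libraries at TGFBR2, SMAD3, SNAI2, ZEB1 and CDH1 (5 of 9, against 43.0% of all windows). CDH1 had 2.73 and 4.79 kb in KO, against 1.10 and 1.97 kb in WT, and TGFBR2 1.02 and 1.22 kb in KO, against 0.409 and 0.614 kb in WT. Both were below at CDH2 (1 of 9, against 6.27%), with 0.726 and 1.78 kb in KO, against 2.11 and 2.34 kb in WT. The exact permutation p was 0.333 at each of these 6. These tests of p53 cover are outside the 27 window tests, which used the p53 peak number, and were not adjusted. Of the 86 p53 regions of the members, 37 had a peak in KO replicate 2 alone, the library with the longest p53 list. The matching share over all p53 regions was not counted, so this is no trait of the members. With lists of equal length 4 p53 regions were gained and 2 lost.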

How the data were processed

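Per the submitters' processing notes, MACS2 2.1.1 and hg38 were used; names inside the deposited lists show 1 call per library against the input of its genotype. The sources used here name no aligner and no read depth, so no interval or floor on counts is given. Each deposited list gives the fold enrichment of a peak, a ratio to local background, and its significance from the authors' caller as −log10 p and −log10 q. Peaks on chromosomes 1 to 22 and X were merged per target where they overlapped by 1 bp. Regions within 1 kb of a member's first RefSeq start were its promoter (either gene end where no strand is given), and the rest lay at its alternative starts, at other coding genes' starts or distal. All 9 members were named, with the distal H3K27ac regions of highest mean WT fold among lost and retained ones, and gained ones. The MLL4 peak of highest fold was named too, as was every p53 region called in both libraries of a genotype. Of the 2 p53 regions at the SMAD7 start, 1 was given only through the highest folds over both. Other regions were named after their values were seen. The members and lists were chosen with earlier results of these data known. Window values were compared with two-sided exact permutation tests. Alternatives tried were −log10 q of 5 or more, lists of equal length, 50 kb windows, 25% cover, 2 kb promoters, leaving out each library and a replicate block. Python 3.11.15 was used, and the code was tested on simulated peaks.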

Additional observations from a re-analysis of the deposited data

How the results depend on the processing

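Of 143 alternatives tried, 112 kept direction and, for counts, stayed within 1.5 times the reported value. H3K4me3 was kept at 8 member starts in all 9 alternatives run for that count. Distal H3K27ac regions lost (91) numbered 22 with lists of equal length, 56 in 50 kb windows and 100 to 213 with 1 library left out. Those gained (0) numbered 2 with equal lists and 0 to 5 with 1 library left out. Distal H3K4me1 regions lost (132) numbered 59 at a −log10 q-value of at least 5, 38 with equal lists and 86 in 50 kb windows. MLL4 peaks of WT (51) numbered 9 at that q-value and 0 with equal lists, since the KO list is short. MLL1 regions lost (45) and gained (6) numbered 12 and 2 at that q-value. p53 regions lost (3) ranged from 4 to 9 with 1 library left out, and those gained (5) numbered 2 at that q-value and 6 to 44 with 1 left out. Windows with less H3K4me3 in both KO libraries (2) numbered 1 at 50 kb and 2 to 4 with 1 left out. Windows with more p53 peaks in KO (1) numbered 0 at that q-value, 3 with equal lists and 1 to 6 with 1 left out. The log2 difference in H3K27ac cover changed sign at TGFBR2 (0.09), to −0.022 without WT replicate 1, and was 0.21 without WT replicate 2 and 0.56 with equal lists. At VIM (−0.17) it was 0.12 with equal lists and ranged from −0.44 to 0.10 with 1 library left out, positive without WT replicate 1. The cause of these changes was not tested. Libraries share only a replicate number. With the replicate block, windows with less cover in KO numbered 7 for H3K27ac (6 without) and 2 for H3K4me3, and those with more p53 peaks 3. Across the 9 windows, the differences between replicates of the 2 genotypes correlated with r = 0.06 for H3K27ac, 0.44 for H3K4me3 and 0.33 for p53, a description over windows that share libraries. Peak lists give no read depth, so a lost region lies only below the calling limit.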
